A study of Mus musculus with 3 samples.

Results

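RBFOX2 crosslink clusters that lay in introns of mouse hepatocyte transcripts, 1 to 500 nt past the end of the nearest exon, are described here. A cluster was a member when its midpoint lay inside a protein-coding gene on the same strand, in no annotated exon, and when the nearest exon of the coding transcripts of that gene lay on its 5′ side, was longer than 51 nt and ended at most 500 nt away. The rule used position only. It was met by 5627 of the 87021 deposited clusters (6.47%, Wilson 95% interval 6.31 to 6.63%), which held 127875 of the 2850863 summed counts (4.49%).

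The clusters came from eiCLIP, in which UV light at 150 mJ/cm2 fixed RBFOX2 to the RNA it touched, an antibody to RBFOX2 (RBM9, Bethyl Laboratories) recovered the complexes, and the start of each cDNA marked a crosslink. The 3 libraries form 1 group: primary hepatocytes of C57BL6/J mice on a control diet, plated and kept overnight before irradiation. The labels give 3 livers and 3 pellets for each library, while the study's methods name fewer mice per culture. No genotype, treatment or comparison group is labelled. The libraries were pooled before clusters were called, so every value below comes from a single list without replicates, its interval covers counting error only, and no difference between groups of clusters was tested.

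RBFOX2 is an RNA-binding protein that recognises (U)GCAUG and changes which exons are joined into messenger RNA. By the positional rule known for the RBFOX family, contacts in the intron downstream of an alternative exon mostly favour its inclusion, and contacts upstream mostly favour skipping. A cassette exon is one that some transcripts include and others leave out, and one whose length is a multiple of 3 can be skipped without shifting the reading frame.

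No genome was used here, so intronic sequence could be read only where an annotated transcript, mostly on the other strand, or a RefSeq promoter (GRCm38.p6) covered it. This was so for 70 of the 5627 clusters with 50 nt on either side (1.24%), too few to describe the rest. Searched on the strand of the transcript, 13 of these 70 windows (18.6%, 11.2 to 29.2%) held GCATG, the DNA form of the motif, beside 11 (15.7%, 9.01 to 25.99%) with CATGC, its reverse complement, which can overlap it. The longer motif TGCATG was in 7 windows, all of them among the 13. GCATG occurred at 1.95 per kb in the windows and at 0.948 per kb over the 530625 known bases of the whole zone, which share bases with the windows. The Gnptab window printed below alone held 4 of the copies in the windows. The windows can also hold exon bases, as in the Synj2 and Nabp2 clusters printed below, whereas the zone is intronic only. Among the 57 windows of clusters that did not overlap the exon, 17.5% (9.82 to 29.4%) held GCATG. Among clusters mirrored on the 5′ side of exons, 20 of 76 windows (26.3%, 17.7 to 37.2%) held it. The 6 readable windows with the highest counts that held the motif are shown first, in coordinates of GRCm38 and in transcript direction, with GCATG in capitals.

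Synj2, chr17:6036490-6036599 (+ strand): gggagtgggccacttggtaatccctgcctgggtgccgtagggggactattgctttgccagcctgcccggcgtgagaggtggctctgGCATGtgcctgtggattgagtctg
Mtx1, chr3:89212440-89212628 (- strand): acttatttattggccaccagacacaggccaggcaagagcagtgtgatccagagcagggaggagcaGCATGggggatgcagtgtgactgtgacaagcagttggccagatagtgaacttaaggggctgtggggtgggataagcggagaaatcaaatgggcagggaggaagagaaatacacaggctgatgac
Rtkn, chr6:83151103-83151161 (+ strand): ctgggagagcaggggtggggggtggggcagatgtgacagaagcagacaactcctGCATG
Ptbp1, chr10:79861239-79861270 (+ strand): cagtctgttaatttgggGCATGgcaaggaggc
Gnptab, chr10:88379980-88380064 (+ strand): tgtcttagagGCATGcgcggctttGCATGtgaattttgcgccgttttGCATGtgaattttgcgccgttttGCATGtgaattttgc
Nabp2, chr10:128409187-128409269 (- strand): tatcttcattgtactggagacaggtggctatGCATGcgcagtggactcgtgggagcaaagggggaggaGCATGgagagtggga

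The Synj2 cluster had 38 counts and lay 40 nt past a cassette exon of 149 nt in the gene for synaptojanin 2, a phosphoinositide phosphatase, with the motif 86 nt after the 5′ end of the cluster. The Mtx1 cluster had 37 counts at 149 nt, the Rtkn cluster 29 at 31 nt and the Nabp2 cluster 23 at 4 nt, the last with 1 copy of the motif inside it and 1 in the flank. In Ptbp1, the gene for a splicing repressor, 28 counts lay 282 nt past a constitutive exon, with the motif 17 nt into the cluster. The Gnptab cluster, 26 counts exactly 500 nt from its exon, had 4 copies in the window shown, of which 2 lay wholly inside the cluster. The 3 readable clusters with the highest counts and no GCATG within 50 nt are given for contrast.

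Acot12, chr13:91742022-91742041 (+ strand): taaccatatttaaaattcta
Sptbn1, chr11:30106592-30106626 (- strand): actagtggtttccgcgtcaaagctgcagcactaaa
Rbm25, chr12:83632549-83632599 (+ strand): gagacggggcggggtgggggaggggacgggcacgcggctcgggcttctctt

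These had 54, 44 and 37 counts. Those in Acot12, for an acyl-CoA thioesterase, and Rbm25, for a splicing factor, followed first exons at 372 and 157 nt, and the one in Sptbn1, for a spectrin, lay 176 nt past an end of a transcript. The 2 highest counts of the readable set were thus on windows without the motif, and none of the clusters described next by its count had a readable window.

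Counts per member ran from 10, the lowest value deposited, to 2107. The median was 17, the quartiles were 13 and 24, and 485 members sat at the minimum. The 10 highest members held 4.40% of the counts. In a pooled list, more contact per transcript and more transcript cannot be told apart. The highest count was in Itga3, for the laminin-binding integrin α3, at chr11:95062230-95062405, 235 nt past a constitutive exon of 211 nt in an intron of 478 nt, with 2107 counts (exact Poisson 95% interval 2018 to 2199). The midpoint of this cluster was near the middle of the intron, which held further members of 239 counts at 31 nt and 56 counts at 109 nt. Klc1, for a kinesin light chain, followed with 942 (883 to 1004) at chr12:111789786-111789828, 321 nt past an exon of 162 nt with alternative ends.

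After these came Sqstm1, for the autophagy receptor p62, with 440 counts (400 to 483) at 330 nt past its first exon, at chr11:50210153-50210292. Actn1, for the actin crosslinker α-actinin 1, had 399 (361 to 440) at 55 nt, at chr12:80171621-80171727. Dgkd, for diacylglycerol kinase δ, had 373 (336 to 413) at 269 nt past a constitutive exon, at chr1:87940562-87940587. Their intervals overlapped from one to the next, whereas Itga3 and Klc1 stood clear of each other and of the rest.

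Errfi1, for an inhibitor of the EGF receptor, had 319 counts (285 to 356) at 13 nt, in a cluster of 68 nt at chr4:150865419-150865486 that reached into the exon. Sorbs2, for an adaptor of the actin cytoskeleton, had 271 (240 to 305) at chr8:45783874-45783901, 262 nt past a cassette exon of 84 nt. Lrrfip1 had 262 (231 to 296) at chr1:91112424-91112584 and Mst1, for a growth factor secreted by hepatocytes, 259 (228 to 293) at chr9:108082670-108082773 in an intron of only 159 nt. The last 3 could not be told apart by count, and of all these members only that of Sorbs2 belonged to a cassette exon.

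**Figure D1:**
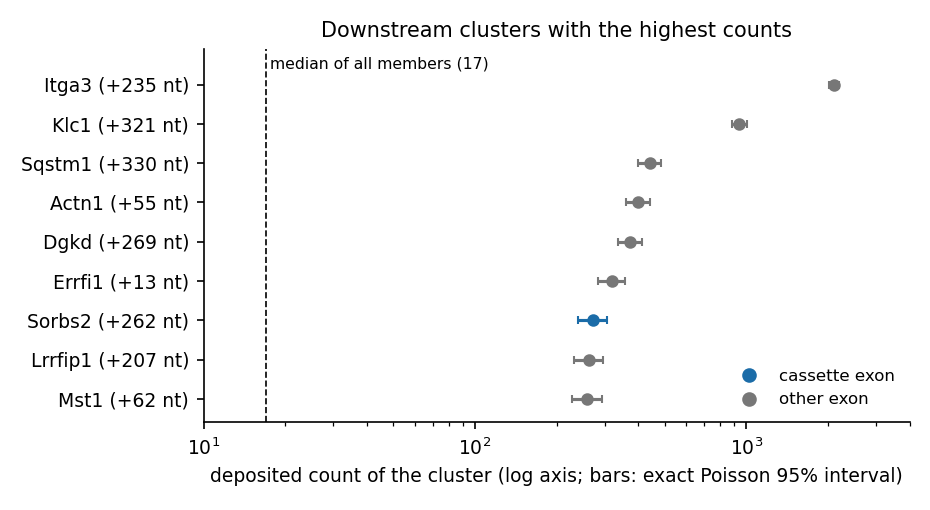
Deposited count (log axis) of 9 downstream clusters among those with the highest counts, with the distance past the exon in nt after each gene name; bars are exact Poisson 95% intervals, the blue point lies beside a cassette exon and the dashed line is the median of all members, 17. Itga3 (2107) and Klc1 (942) stand apart from the other 7, which run from 259 to 440.

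The counts of the members were close to those of other deposited clusters. Of the 5627, 498 (8.85%, 8.14 to 9.62%) were in the top 10% by count, at 39 counts or more, where 10.2% of all clusters stood. The share was 8.12% (7.37 to 8.94%) among clusters 1 to 500 nt upstream of exons and 14.7% (12.5 to 17.3%) among those beside exons of 51 nt or less. The members were wide, with a median of 26 nt (quartiles 8 and 70), 24 nt upstream and 18 nt over all clusters. A width of 5 nt or less was found in 1079 members (19.2%, 18.2 to 20.2%) and in 26.7% of all clusters.

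Density was highest next to the exon and fell with distance. To allow for short introns, members were counted per Mb of intron in which a member could have lain, in genes with at least 1 cluster. In the first 50 nt there were 251 per Mb (237 to 265), from 51 to 100 nt 174 (162 to 186), from 101 to 150 nt 142 (131 to 154) and from 451 to 500 nt 103 (92.3 to 115). Within 100 nt lay 2005 members (35.6%, 34.4 to 36.9%). In all, 728 members (12.9%, 12.1 to 13.8%) overlapped the exon that ended before them, 641 of them in the first 50 nt and 87 from 51 to 100 nt. No cluster was wider than 200 nt, so members farther out could not overlap it, and leaving these out can lower only the first 2 steps. Without the 728, the first 50 nt held 120 per Mb (110 to 130) and the next 50 nt 154 (143 to 166), and 26.1% of the members lay within 100 nt. What the rise at the exon rests on was not tested. Members in the first 50 nt were also wide, with a median of 37 nt, against 23 nt from 451 to 500 nt.

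**Figure D2:**
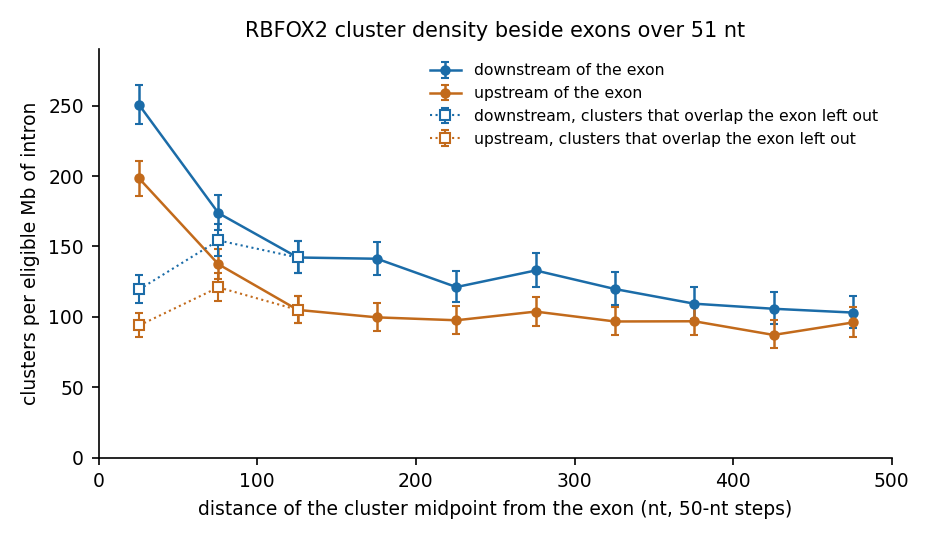
Clusters per Mb of eligible intron in 50-nt steps of distance from the exon, downstream (blue) and upstream (orange), with exact Poisson 95% intervals; open squares leave out clusters that overlap the exon, which can lower only the first 2 steps. Downstream density falls from 251 to 103 per Mb, and the first step is at 120 without overlapping clusters.

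Over 1 to 500 nt the density was 145 per Mb downstream and 115 upstream, a ratio of 1.26 (1.21 to 1.31). The ratio was 1.26 in the first 100 nt (1.18 to 1.35), 1.26 from 101 to 500 nt (1.195 to 1.32) and 1.07 from 451 to 500 nt (0.917 to 1.26). It depended on the point taken for a cluster: placed by its 5′ end in place of its midpoint, the ratio was 1.02 (0.985 to 1.06). With clusters in the top 10% by count only, placed by midpoint, it was 1.37 (1.198 to 1.57). The share of upstream clusters that overlapped their exon, 599 (13.0%), was close to that of the members.

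Of the 102928 exons over 51 nt in genes with a cluster, 4905 (4.77%) had at least 1 member, of which 4453 had 1, 318 had 2 and 134 had 3 or more. Members followed 3909 of 88715 internal exons (4.41%, 4.27 to 4.54%) and 841 of 11749 first exons (7.16%, 6.71 to 7.64%), the latter with a higher density, 216 per Mb against 134. A further 196 members lay past 155 of 2464 exon ends at which transcripts stop and no splice is annotated. They met the rule because another transcript of the gene runs on, and they do not follow a 5′ splice site. The exon with most members, 15, was the first exon of Deaf1, a transcription factor gene, at chr7:141327279-141327672, with 922 counts in all from 7 to 491 nt. Next was the 162-nt exon of Klc1 at chr12:111789325-111789486 with 12 members and 1273 counts, 942 of them in the cluster above. These exons were chosen after their values were seen.

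Cassette exons carried members more often than constitutive ones. A member followed 401 of 5892 cassette exons (6.81%, 6.19 to 7.48%) and 1914 of 46784 constitutive exons (4.09%, 3.92 to 4.27%), a difference of 2.72 percentage points (Newcombe 95% interval 2.07 to 3.41), beside 4.77% of all exons. By density it was 226 against 122 members per Mb. Exons with alternative ends stood between, at 5.62% (5.17 to 6.10%), and exons of a single transcript at 3.995% (3.77 to 4.24%). A cassette exon with a member more often had at least 2 of them, 16.7% (13.4 to 20.7%) of 401 against 7.99% (6.86 to 9.30%) of 1914. Exons of one gene share its transcript, and the intervals, which treat exons as independent, are narrower than ones that allowed for this would be. In genes with at least 1 member the difference was 7.07 points (5.63 to 8.60). Keeping only such genes raises both shares by construction, so this value does not compare with the 2.72 points.

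The difference was small next to the exon. In the first 100 nt, 2.19% of cassette and 1.77% of constitutive exons had a member, a difference of 0.420 points (0.0544 to 0.842). From 101 to 200 nt it was 2.22% against 0.883%, or 1.34 points (0.983 to 1.76). From 201 to 300 nt it was 0.862 points (0.557 to 1.23), from 301 to 400 nt 0.876 (0.595 to 1.22) and from 401 to 500 nt 0.446 (0.218 to 0.734). The members of cassette exons lay farther out, with a median distance of 188 nt (quartiles 95 and 319.5) against 150 nt (50 and 292) for constitutive exons. Only 7.46% (5.50 to 10.03%) of them overlapped the exon, against 16.7% (15.2 to 18.4%). Within 500 nt upstream, 5.57% of cassette and 3.48% of constitutive exons had a cluster. This difference of 2.10 points (1.52 to 2.73) was close to that downstream, so the excess was not particular to the members. By steps, the upstream difference was 0.475 points (0.143 to 0.865) in the first 100 nt and 0.854 (0.559 to 1.21) from 101 to 200 nt. The order of the first 2 steps was thus alike on both sides.

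**Figure D3:**
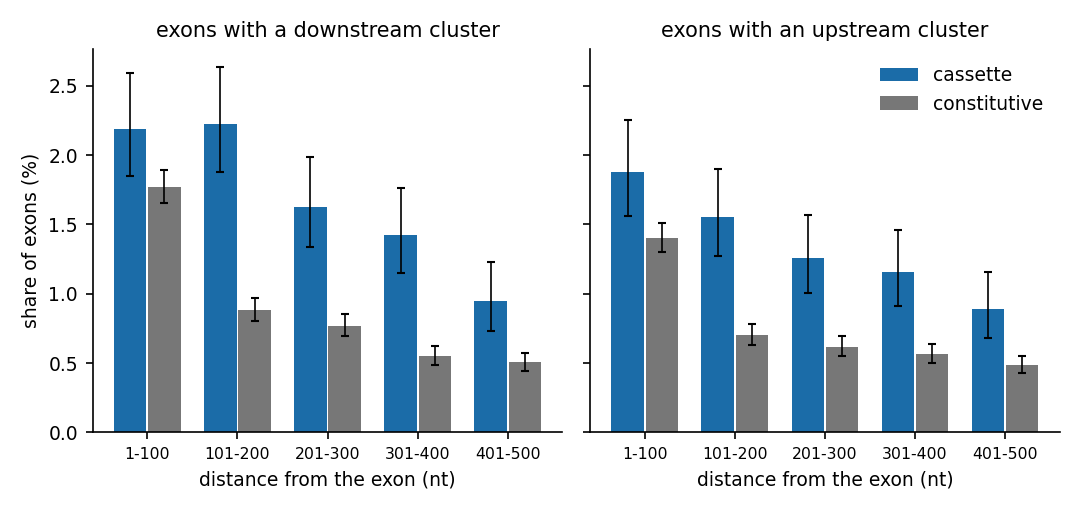
Share of cassette (blue) and constitutive (grey) internal exons with a cluster in each 100-nt step downstream (left) and upstream (right); bars are Wilson 95% intervals. Downstream, cassette exons stay at 2.19% and 2.22% in the first 2 steps while constitutive exons drop from 1.77% to 0.883%.

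Cassette exons followed by high counts more often had a length that is a multiple of 3. Whether these exons lie in coding sequence was not checked. The 401 cassette exons with a member had a length that was a multiple of 3 in 57.1% (52.2 to 61.9%) of cases, and the 2101 cassette exons without one in the same genes in 55.7% (53.6 to 57.9%). By the highest count among the members of the exon, the share was 50.6% (43.1 to 58.0%) of 170 exons at 10 to 16 counts, 57.7% (50.4 to 64.6%) of 182 at 17 to 38, and 77.6% (64.1 to 87.0%) of 49 at 39 or more. Constitutive exons showed no such order, at 37.9%, 38.2% and 38.3% in the same classes. The 49 exons came from 43 genes, with at most 2 from one gene. The cuts at 17 and 39 counts are the median and the top 10% of all clusters, and the split into 3 classes was made after the data were seen.

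The same cassette exons often had a cluster on their other side too. An upstream cluster stood at 18.7% (15.2 to 22.8%) of cassette exons with a member and at 6.85% (5.85 to 8.02%) of those without, and at 8.15% (7.01 to 9.46%) and 4.72% (4.43 to 5.02%) of constitutive exons. With the highest count it was 12.4% at 10 to 16 counts, 17.03% at 17 to 38 and 46.9% (33.7 to 60.6%) at 39 or more for cassette exons, and 13.8% (9.36 to 19.8%) at 39 or more for constitutive ones. In all, 406 exons had clusters within 500 nt on both sides. The level of these transcripts was not measured, and its part in the shares was not tested.

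**Figure D4:**
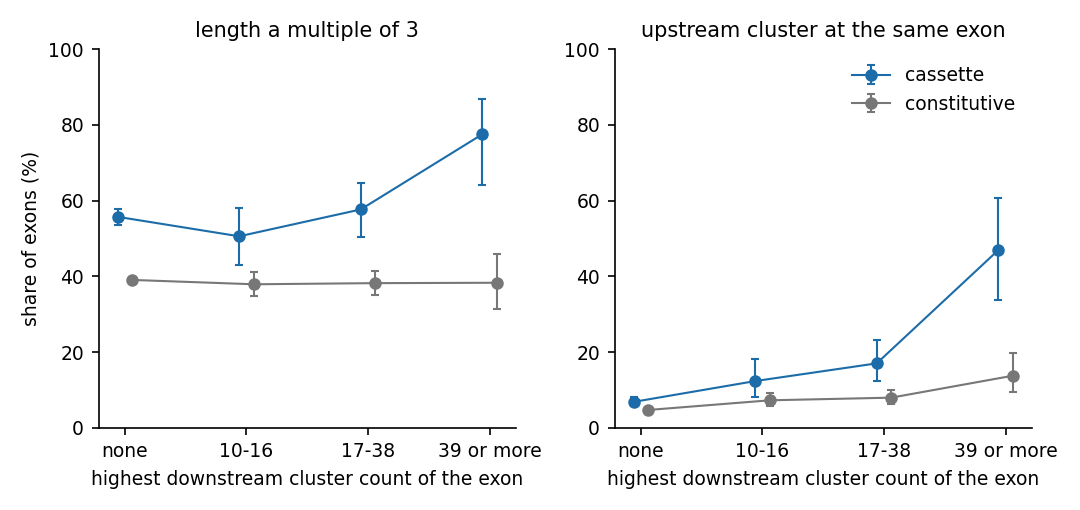
Share of cassette (blue) and constitutive (grey) exons whose length is a multiple of 3 (left) and that also have an upstream cluster (right), by the highest count among their downstream clusters; "none" are exons without one in genes with a member elsewhere, and bars are Wilson 95% intervals. At 39 counts or more the cassette exons reach 77.6% and 46.9%, the constitutive ones 38.3% and 13.8%.

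Other features of the exons themselves differed little. Internal exons with a member had a median length of 124 nt, against 127 nt for exons without one in the same genes, and a GC content of 51.2% against 50.5%. Their downstream introns were longer, with a median of 1593 nt against 1120 nt. Under the rule a short intron leaves less room for a member, and these medians were not adjusted for that. The exon ended in AG, the last letters of the 5′ splice site consensus on the exon side, in 55.4% (53.8 to 56.9%) against 58.3% (57.7 to 58.8%). GCATG stood in the last 50 nt of the exon in 4.79% (4.16 to 5.50%) and 4.47% (4.26 to 4.69%), and CATGC in 5.10% and 4.80%.

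Of the 5 cassette exons with the highest summed downstream counts, 4 are printed, each followed by 5 or 6 separate clusters. Their sequences were read from GENCODE M21 transcripts on GRCm38.

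Sorbs2, chr8:45783543-45783626 (+ strand): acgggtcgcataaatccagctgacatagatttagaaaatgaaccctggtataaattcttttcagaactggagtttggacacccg
Slc7a2, chr8:40908398-40908534 (+ strand): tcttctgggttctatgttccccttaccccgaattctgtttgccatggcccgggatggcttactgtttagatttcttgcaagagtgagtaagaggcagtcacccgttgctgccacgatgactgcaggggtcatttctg
Epb41, chr4:131962924-131962986 (- strand): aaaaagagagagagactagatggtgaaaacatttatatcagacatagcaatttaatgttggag
Dgkd, chr1:87941369-87941499 (+ strand): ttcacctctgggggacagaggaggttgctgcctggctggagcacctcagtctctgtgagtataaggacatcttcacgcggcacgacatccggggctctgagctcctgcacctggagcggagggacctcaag

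The Sorbs2 exon of 84 nt was followed by 6 clusters and 579 counts, in order of distance 30 at 22 nt, 62 at 33 nt, 143 at 70 nt, 39 at 188 nt, 271 at 262 nt and 34 at 461 nt. The counts thus had 2 peaks, one near the exon and a higher one past 200 nt, and a cluster also stood upstream.

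The Slc7a2 exon of 137 nt, in the gene for a cationic amino acid transporter, was followed by 6 clusters and 311 counts, led by 155 at 72 nt and 69 at 374 nt. The Epb41 exon of 63 nt codes for part of the spectrin and actin binding domain of protein 4.1, and RBFOX proteins are known to promote its inclusion in red cell precursors. It was followed by 5 clusters and 232 counts, with 67 at 102 nt, 36 at 152 nt, 26 at 204 nt, 61 at 369 nt and 42 at 460 nt. The Dgkd exon of 131 nt had 6 clusters and 224 counts, led by 88 at 242 nt. Its neighbour, the constitutive exon 1 intron before it, carried the cluster of 373 counts described above. Of these 4 exons, those of Sorbs2 and Epb41 have lengths that are multiples of 3. Whether another exon takes the place of any of them when it is skipped was not checked.

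At least 1 member was found in 3095 protein-coding genes, which is 14.1% of the 22028 annotated and 33.7% of the 9191 with any cluster. Of these, 1942 had 1 member, 167 had 5 or more and 24 had 10 or more. Sorbs2 had the most, 41 members with 1766 counts after 18 of its 24 exons over 51 nt, 14 of them beside cassette exons, although they were only 5.97% of the 687 clusters in that gene. Sptan1, for the α chain of non-erythroid spectrin, had 18 after 11 of 44 exons with 449 counts. The highest of them, 69 counts at 15 nt, overlapped its exon. Rbpms, for an RNA-binding protein, had 18 after 8 of 10 exons with 368 counts and none above 40. In Rbpms 7 of the 18 members, with 178 counts, followed 1 exon of 134 nt, also seen only after its values were known.

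Fn1, for fibronectin, had 17 members after 12 of 42 exons with 429 counts. Klc1 had 16 after 4 of 16 exons, 12 of them at 1 exon, and Deaf1 16 after 2 of 11, 15 of them at 1 exon. Deaf1 members had a median width of 3 nt and made up 32.7% of the 49 clusters in the gene. Ubr4, for a ubiquitin ligase, had 16 after 12 of 105 exons with 294 counts, 10 of them beside cassette exons.

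**Figure D5:**
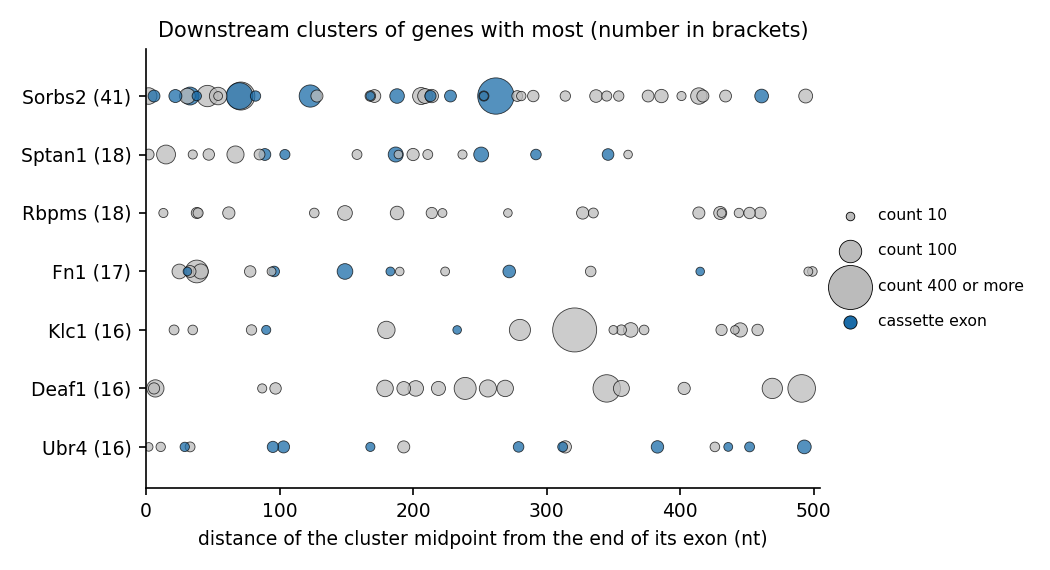
Distance past the exon (nt) of every member of 7 of the genes with most members; each circle is a cluster, its area grows with its count up to 400, and blue circles lie beside cassette exons. Sorbs2 and Fn1 members spread over the 500 nt, while the 942 counts of Klc1 sit at 321 nt.

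In fibronectin, both extra domain exons, EDA and EDB, which hepatocytes are known to leave out of plasma fibronectin, had members. The 270-nt exon at chr1:71603660-71603929 was followed by clusters of 18, 46 and 28 counts at 96, 149 and 272 nt, and also had an upstream cluster. The 273-nt exon at chr1:71613763-71614035 was followed by 2 clusters of 10 counts each, at 31 and 415 nt, both at the deposited minimum, and had an upstream cluster as well. The highest Fn1 member, 103 counts at 38 nt, followed a constitutive exon of 192 nt and overlapped it.

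The members in the targets that the study singled out had 13 to 88 counts, most of them above the median of 17 over all members. Pla2g6, for a phospholipase A2, had 7 with 214 counts, of which 88 (70.6 to 108) lay at chr15:79305520-79305568, 159 nt past a constitutive exon of 109 nt that had 4 of the 7. Sec31a, for a COPII coat protein, had 46 counts (33.7 to 61.4) at chr5:100388122-100388143, 401 nt past a cassette exon of 78 nt, and 26 past another exon. Numb, for an endocytic adaptor, had 19 counts at 74 nt past the 147-nt cassette exon at chr12:83797197-83797343, which codes for an insert in its proline-rich region, and 32 at 111 nt past a constitutive exon of 150 nt. Each of these 3 genes thus had a member beside a cassette exon, since the 165-nt cassette exon of Pla2g6 was followed by 14 counts at 435 nt.

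Osbpl9, for an oxysterol-binding protein, had 13 counts at 175 nt past a first exon, and Snrnp70, for a U1 snRNP protein, 20 counts in a cluster of 1 nt at 440 nt. Ptbp2, for a splicing repressor, had 28 counts at 298 nt past an internal exon and 40 past an end of a transcript. Scarb1, for the HDL receptor, had no member and no cluster in the mirrored upstream zone, in a list that holds no cluster under 10 counts. The study reported RBFOX2 binding upstream of the alternative Scarb1 exon, whose skipping it found RBFOX2 to promote. Clusters of Scarb1 outside these zones are not described here. Rbfox2 itself had 6 members with 132 counts. The gene had 6 upstream clusters as well. Its 93-nt cassette exon at chr15:77105577-77105669 was followed by 41 (29.4 to 55.6), 35 (24.4 to 48.7) and 17 (9.90 to 27.2) counts at 21, 144 and 225 nt, and had an upstream cluster as well. No other exon of the gene had more than 1 member.

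The gene lists below were drawn up with earlier results of these data known and are described by counts only, with shares over all matched genes, beside 14.1% of all protein-coding genes, 33.7% of those with any cluster and 4.77% of the exons of the latter. Of 40 genes with exons known to respond to RBFOX proteins in other tissues, 30 had a member (75%, 59.8 to 85.8%), as did 96 of their 1004 exons (9.56%, 7.89 to 11.5%). Their 123 cassette exons included 27 with a member, in 18 genes, beside 401 of all 5892 cassette exons (6.81%). Of the 27, 24 had a length that is a multiple of 3. So did 77 of the 96 without a member. After Epb41, the highest summed counts in this list of cassette exons were 136 in Dst, for a plakin, past a 72-nt exon, then the Rbfox2 and Fn1 exons above. Cttn, for cortactin, had 75 counts in 2 clusters past the 111-nt exon that codes for an actin-binding repeat. Tjp1, for the tight junction protein ZO-1, had 62 counts at 194 nt past its 240-nt exon. Mbnl1, for a splicing regulator, had 51 counts in 3 clusters past its 54-nt exon, and 51 in 2 clusters past one of 95 nt. Of the 27 exons, 11 had 2 or more members and 14 had an upstream cluster too. Among all 401 cassette exons with a member these were 67 (16.7%) and 75 (18.7%).

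Among cell junction and actin linker genes, 40 of 60 had a member (66.7%, 54.1 to 77.3%), as did 9.63% (8.26 to 11.2%) of their exons. Their 228 members had a median count of 20, and Sorbs2 and Actn1 (11 members, 731 counts) were the highest of those named here. Splicing and RNA-binding protein genes had members in 44 of 82 (53.7%, 42.9 to 64.0%) and after 9.30% (7.41 to 11.6%) of exons, led by Ewsr1 (10 members, 209 counts), Rbfox2 and Mbnl1 (6 members, 130 counts). Of the abundant liver transcripts 20 of 57 had a member (35.1%, 24.0 to 48.1%), or 38.5% of the 52 with any cluster, and 9.68% (7.52 to 12.4%) of their exons did. Fn1, Gc, for the vitamin D binding protein, with 348 counts, and Ahsg, for fetuin-A, with 314, led this list, the last with 220 counts 45 nt past a constitutive exon.

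Genes of endocytosis and vesicle traffic had members in 38 of 60 (63.3%, 50.7 to 74.4%) and after 5.99% (4.82 to 7.44%) of exons, led by Sec16a, for an organiser of ER exit sites, with 285 counts, and the kinesins Kif1b with 171 and Kif21a with 131. Genes of lipid and lipoprotein metabolism had them in 29 of 64 (45.3%, 33.7 to 57.4%) and after 5.55% (4.30 to 7.14%) of exons, led by Pla2g6 and by Soat2, for a cholesterol-esterifying enzyme, with 166 counts. Insulin and kinase signalling genes had them in 25 of 54 (46.3%, 33.7 to 59.4%) and after 4.13% (3.02 to 5.62%) of exons, led by Map3k13 with 242 counts, Mapk14, for p38α, with 127 and Camk2d with 114. By exons, the intervals of the lipid and the signalling lists both included the 4.77% of all exons.

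The limits of the rule cut through clusters of like counts. The 78 clusters 491 to 500 nt from the exon had a median of 19 counts and a highest of 154, in Deaf1, and the 78 clusters at 501 to 510 nt a median of 19 and a highest of 57, in Rpl32. Beside exons of 52 to 54 nt lay 66 members with a median of 17 counts, the highest 62 in Nsmf, and beside exons of 49 to 51 nt 78 clusters with a median of 17.5, the highest 93 in Sorbs2. For 707 members exons of different length share the boundary, and taking the longest or the shortest of them gave 5639 or 5537 members.

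The labelled cell type could be checked on all clusters. Of 9 matched hepatocyte markers 8 had clusters, with 13075 counts in all, 8110 of them in 1 gene. These clusters included 15 members, while Asgr1 had no cluster. Among 5 markers each, clusters were found in 1 endothelial gene (12 counts), 1 Kupffer cell gene (15), 1 stellate cell gene (150) and no cholangiocyte gene, and none of these held a member.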

How the data were processed

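The values were deposited by the authors as 1 list of clusters with a whole-number count each, taken here as counts of cDNA starts pooled over the 3 libraries. Per the study's methods and the submitters' processing notes, adaptors were trimmed with cutadapt, reads under 18 nt were dropped, the rest were aligned to GRCm38 with STAR 2.4.2a, PCR duplicates were removed by a random barcode of 7 nt and a mapped position, and crosslinks were clustered with Paraclu. CASAVA 1.8.4 is also named. The counts were not normalised, the depth per library is not known from the list, and 28 clusters on sequences outside the annotation could not be placed.

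Clusters were placed by midpoint on GENCODE M21 (GRCm38, coordinates from 1) with Python 3.11.15, numpy 2.4.6, pandas 2.3.3, scipy 1.17.1 and matplotlib 3.10.9. At a boundary shared by several exons, the one used by most coding transcripts was taken, and 8 clusters equally far from 2 exons were left out. Cassette exons are skipped by at least 1 spanning coding transcript, and constitutive exons are used by all of at least 2. An exon that such a transcript replaces with another one also counts as a cassette exon. The distance map was tested on simulated positions. Shares have Wilson, differences Newcombe and counts exact Poisson 95% intervals. Named were the 10 highest members, the 8 genes with most, the 5 cassette exons with the highest summed count, Rbfox2 and 7 targets singled out by the study, the 3 highest genes of each of 7 lists, and the clusters at the limits. Some items that this rule names are not reported here. Other genes in the text, such as Dst, Cttn and Tjp1, and the fibronectin exons were chosen after their values were seen. The members, the lists and this rule were chosen with earlier results of these data known. The alternatives changed the count filter, the placement, the distance, the exon length, merging, the transcripts and the motif.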

Additional observations from a re-analysis of the deposited data

How the results depend on the processing

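Over 56 alternative values for 8 results, 35 moved by less than their interval or by less than 1.5 times for a count, and 21 moved more. With clusters at or above the median of 17 counts there were 2914 members, and with the top 10% (39 counts or more) 498. The cassette minus constitutive difference was then 1.74 and 0.475 points. In the same order, 61.9% and 77.6% of cassette exons with a member had a length that is a multiple of 3. The share of protein-coding genes was 8.52% and 1.64%. The top 10% gave a density ratio of 1.37, and 0 of only 2 readable windows held GCATG. Placement by the 5′ end gave a ratio of 1.02, 31.3% within 100 nt and 13.2% of genes. A limit of 300 nt gave a difference of 2.01 points. Genes with a member, a choice that raises both shares by construction, gave 7.07. TGCATG was in 10% of readable windows. The next 3 settings were chosen after seeing the data. Without clusters that overlap the exon, 26.1% lay within 100 nt and 12.6% of genes had a member. Without clusters of 5 nt or less, the values were 37.5% and 12.6%, and the median count was 18. Leaving out ends without an annotated splice was run for the number of members, their median count, the share within 100 nt and the share of genes, and moved none of these 4. The causes were not tested beyond what fewer clusters or shorter zones give by construction. The cassette difference was above 0 in every setting, and so was the ratio above 1, though its interval by 5′ ends, 0.985 to 1.06, included 1. Leaving out a library was not possible because the libraries were pooled. No paired analysis was possible because the single group has no values per library. The motif results rest on 1.24% of the members.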
